A study of Mus musculus with 6 samples.

Results

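The 9 genes described here encode proteins of central myelin and of the mature oligodendrocytes that make it. They were taken as a named list of mouse symbols, and each symbol matched 1 of the 55335 Ensembl gene identifiers counted in every library. All 9 were among the 19809 genes with enough counts to be tested. Transcripts had been counted by strand-specific RNA-seq of total RNA from C57 mouse striatum, where the basal ganglia receive their cortical input. The 6 libraries were 3 of genotype PDE5A Overexpressing and 3 of genotype WT, called control here. PDE5A is a phosphodiesterase that hydrolyses cyclic GMP, and the series compared striatal transcripts with and without its overexpression. The labels do not state how or in which cells PDE5A was overexpressed, what the control mice received, or how old the mice were. They also do not state that each library is a separate animal, so the p-values reflect only library-to-library spread, and that spread may be technical.

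Oligodendrocytes wrap axons in many turns of their own membrane, and the turns are pressed together into myelin, which insulates the axon and speeds conduction. In the striatum much of this myelin lies in the bundles of axons of the internal capsule that cross the nucleus. Mbp, myelin basic protein, holds the inner faces of the membrane together, and Mobp is another small basic protein of compact myelin. Mog lies on the outermost surface of the sheath, and Mag lies on the surface that faces the axon. Cldn11 forms the tight junctions between the turns of the sheath. Mal is a raft protein of membrane traffic, Cnp keeps the cytoplasmic channels of the sheath open, Ermn binds the actin cytoskeleton, and Opalin is a membrane glycoprotein of mature oligodendrocytes.

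The promoters of the myelin genes are shown as a description of their sequence. The transcripts of these genes varied together from library to library, as described below, and the part of the promoters in that was not tested. RefSeq's table for GRCm38.p6 held promoters of 8 of the 9 genes, Mbp being the other. The 250 bases before the transcription start were searched on both strands for 3 short motifs. These were the SOX cores ACAAAG and ACAATG, the kind of site bound by SOX10, and CTGGCAC, the core bound by MYRF. Both factors are transcription factors of the oligodendrocyte lineage. No motif overlapped another. The 5 promoters with a match are given 5′ to 3′ along the gene's own strand, with the matches in capitals, CTTTGT being ACAAAG read on the opposite strand. The Mobp stretch is chr9:120149492-120149741 on the plus strand, Cnp is chr11:100574689-100574938 on the plus strand, Mag is chr7:30914864-30915113 on the minus strand, Opalin is chr19:41077114-41077363 on the minus strand and Ermn is chr2:58052865-58053114 on the minus strand. The table lists 3 starts for Mag, and the stretch shown is at the start nearest to that of the GENCODE gene.
Mobp: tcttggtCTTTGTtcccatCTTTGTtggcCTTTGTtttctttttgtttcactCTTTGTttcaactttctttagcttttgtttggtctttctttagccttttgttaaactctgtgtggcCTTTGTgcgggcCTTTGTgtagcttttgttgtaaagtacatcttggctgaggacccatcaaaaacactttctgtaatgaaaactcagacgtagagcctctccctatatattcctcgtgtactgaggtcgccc
Cnp: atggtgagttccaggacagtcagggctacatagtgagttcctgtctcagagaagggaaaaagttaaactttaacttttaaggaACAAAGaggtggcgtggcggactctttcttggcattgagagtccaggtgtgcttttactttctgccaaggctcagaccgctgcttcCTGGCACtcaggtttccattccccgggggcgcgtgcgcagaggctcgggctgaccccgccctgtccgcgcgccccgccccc
Mag: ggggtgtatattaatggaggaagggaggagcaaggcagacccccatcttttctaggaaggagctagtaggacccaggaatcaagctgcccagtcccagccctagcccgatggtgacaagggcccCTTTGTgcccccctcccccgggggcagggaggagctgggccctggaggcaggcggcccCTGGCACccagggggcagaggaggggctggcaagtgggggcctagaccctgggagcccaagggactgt
Opalin: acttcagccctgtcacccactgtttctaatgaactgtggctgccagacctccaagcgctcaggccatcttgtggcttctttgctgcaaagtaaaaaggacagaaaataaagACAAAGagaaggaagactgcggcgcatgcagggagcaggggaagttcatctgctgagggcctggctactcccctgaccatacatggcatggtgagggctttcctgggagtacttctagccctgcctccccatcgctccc
Ermn: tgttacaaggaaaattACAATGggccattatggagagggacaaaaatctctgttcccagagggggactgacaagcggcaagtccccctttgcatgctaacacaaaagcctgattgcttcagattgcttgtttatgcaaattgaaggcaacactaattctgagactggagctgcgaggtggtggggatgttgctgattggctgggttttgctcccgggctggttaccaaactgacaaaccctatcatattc

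ACAAAG stood in 4 of the 8 promoters, and 16.5% of all 32851 promoter windows of the same length held it. Mobp held 6 copies, and no other window in the table held as many. CTGGCAC stood in 2 of the 8, those of Cnp and Mag, against 4.19% of all windows, and ACAATG stood in 1 of the 8, that of Ermn, against 10.7%. The promoters of Mog, Cldn11 and Mal held none of these letters in this stretch. A match of letters is a description of the sequence and was not tested as a binding site.

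The libraries held 33013698 to 39271447 counts in overexpression and 40653784 to 42288789 in control, so all 3 overexpression libraries were shallower. Pde5a itself stood at 592 to 760 CPM (counts scaled to library size with TMM factors, as are all CPM values here) in overexpression and at 3.72 to 6.09 CPM in control, a log2 fold change of 7.20 (SE 0.23, Benjamini-Hochberg adjusted p = 0.000151, edgeR quasi-likelihood). It was the 1 gene of 19809, 0.00505%, past the adjusted p of 0.05. The label of central myelin was set against genes of Schwann cells, which make peripheral myelin. Of 8 Schwann cell genes listed, 6 had enough counts to be tested, and together they summed to 18.5 to 24.1 CPM in overexpression and 20.5 to 29.1 CPM in control, against 9088 to 9925 CPM in overexpression and 8406 to 11734 CPM in control for the 9 myelin genes. Cdh19 gave most of the Schwann cell sum, at 13.4 to 17.3 CPM in overexpression and 13.7 to 22.0 CPM in control. The sums are of different genes and are not set per length, so they cannot by themselves settle the label. In whole tissue, fewer oligodendrocytes and less RNA per oligodendrocyte cannot be told apart.

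None of the 9 myelin genes changed between PDE5A overexpression and control by the test over all genes. 8 had a slightly negative log2 fold change and Opalin a slightly positive one, between -0.18 and 0.0084, with a median of -0.094 against 0.0016 over all genes tested. Negative values made up 49.4% of all genes and 56.6% of those of at least 50 CPM, the range of all 9. Unadjusted p ran from 0.36 for Ermn to 0.947 for Opalin, and after Benjamini-Hochberg adjustment the edgeR quasi-likelihood p was 0.99996 for each. The groups overlapped for all 9, where they were separate for 8.93% of all genes, and separate and lower in overexpression for 4.11%.

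Of the structural proteins of compact myelin, Mbp (ENSMUSG00000041607) had 5754, 5186 and 5777 CPM in overexpression replicates 1 to 3, against 6795, 6336 and 4858 CPM in control replicates 1 to 3. Control replicates 1 and 2 lay above all overexpression libraries and control replicate 3 below them. The means were 5573 ± 335 CPM in overexpression and 5996 ± 1012 CPM in control (SD, n = 3 each), a log2 fold change of -0.11 (SE 0.13) with a 95% interval of -0.42 to 0.20. On the linear scale that interval ran from a fold of 0.750 to 1.152. Mbp alone took 0.522% to 0.586% of all counts in overexpression and 0.483% to 0.683% in control.

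Mobp (ENSMUSG00000032517) had 2167, 2023 and 2154 CPM in overexpression, against 2486, 2541 and 1831 CPM in control. It was the only member with its highest level in control replicate 2, and the overexpression libraries again lay inside the range of the controls. Its log2 fold change was -0.11 (SE 0.13), with a 95% interval of -0.42 to 0.19.

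Among the proteins of the sheath's surfaces and junctions, Mog (ENSMUSG00000076439) had 117, 110 and 112 CPM in overexpression, against 138, 114 and 101 CPM in control. Mag (ENSMUSG00000036634) had 303, 286 and 323 CPM in overexpression, against 360, 314 and 251 CPM in control. Cldn11 (ENSMUSG00000037625) had 264, 253 and 277 CPM in overexpression, against 321, 266 and 228 CPM in control. In each of these the highest and the lowest library were control replicates 1 and 3. The log2 fold changes were -0.052 for Mog, -0.021 for Mag and -0.038 for Cldn11, with 95% intervals that reached from -0.32 to 0.28.

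Of the proteins of cytoplasm and membrane traffic, Cnp (ENSMUSG00000006782) had 617, 580 and 583 CPM in overexpression, against 758, 615 and 542 CPM in control. Mal (ENSMUSG00000027375) had 468, 436 and 447 CPM in overexpression, against 575, 463 and 403 CPM in control. Their log2 fold changes were -0.11 (SE 0.12) for Cnp and -0.094 (SE 0.13) for Mal. Both genes kept the arrangement of the others, with the overexpression libraries between control replicates 1 and 3.

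Ermn (ENSMUSG00000026830) had 164, 145 and 135 CPM in overexpression, against 217, 153 and 133 CPM in control, and it had the largest fold change of the 9. Its means were 148 ± 14.8 CPM in overexpression and 168 ± 43.6 CPM in control (SD, n = 3 each), with a log2 fold change of -0.18 (SE 0.18) and the widest interval, from -0.61 to 0.25. Control replicate 1 stood apart from the other 5 libraries. Opalin (ENSMUSG00000050121) had 71.3, 68.4 and 68.6 CPM in overexpression, against 83.5, 64.0 and 59.5 CPM in control. Its group means, 69.4 ± 1.61 CPM in overexpression and 69.0 ± 12.8 CPM in control, were nearly equal while their spreads were not, and its log2 fold change was 0.0084 (SE 0.12).

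**Figure D1:**
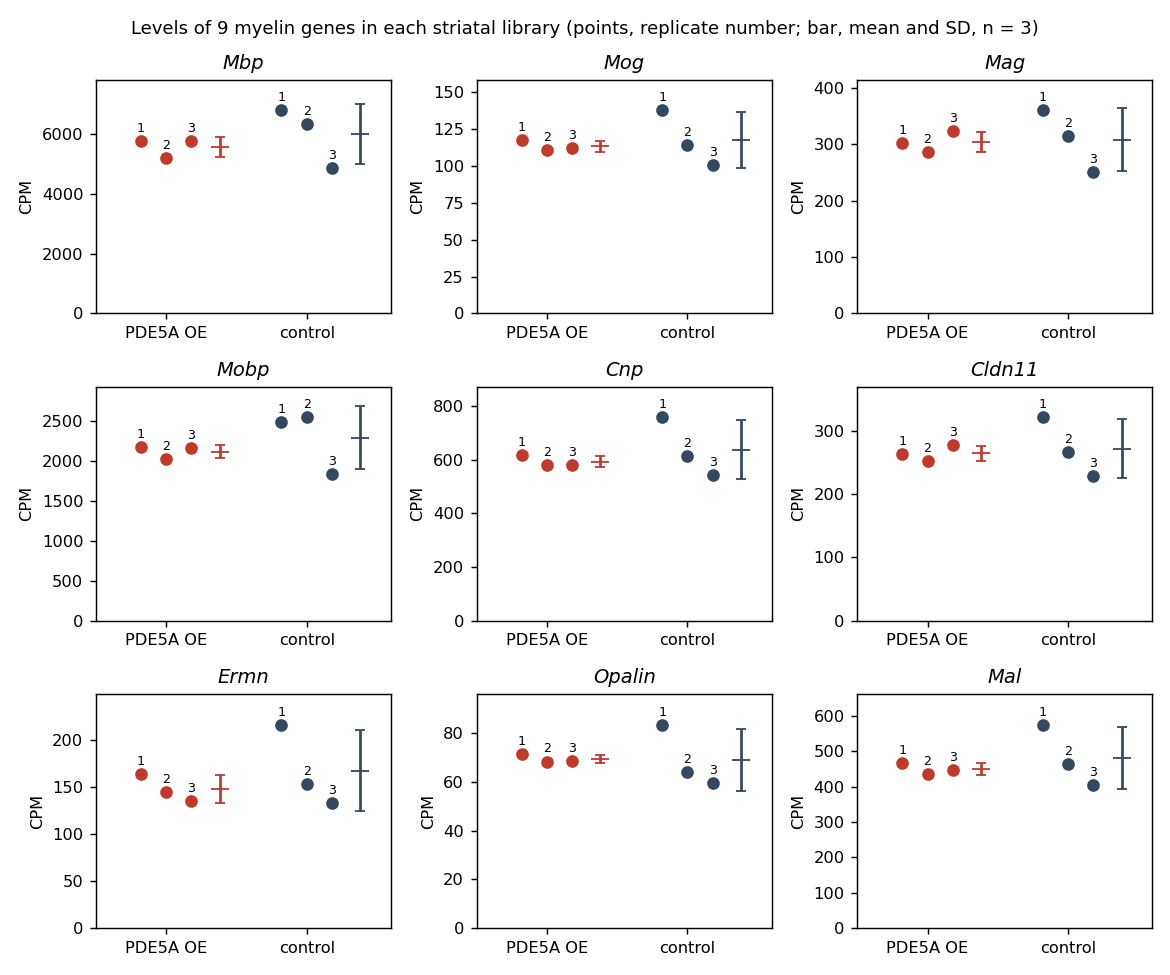
CPM of each myelin gene in each library, with PDE5A overexpression on the left and control on the right of each panel; points carry the replicate number, and bars give mean and SD (n = 3). In all 9 panels the 3 overexpression points lie inside the range of the 3 control points.

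The direction of most of these small differences depended on control replicate 1. Without it, 7 of the 9 fold changes were positive and the median was 0.061. Without any other single library 0 to 2 of the 9 were positive. Without control replicate 3 all 9 were negative and the median was -0.20. Mbp and Mobp stayed negative whichever library was left out. Over the 17 other settings that kept at least 2 libraries in each group, 0 gave any member past the threshold, and the smallest Benjamini-Hochberg adjusted p of a member was 0.916.

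**Figure D2:**
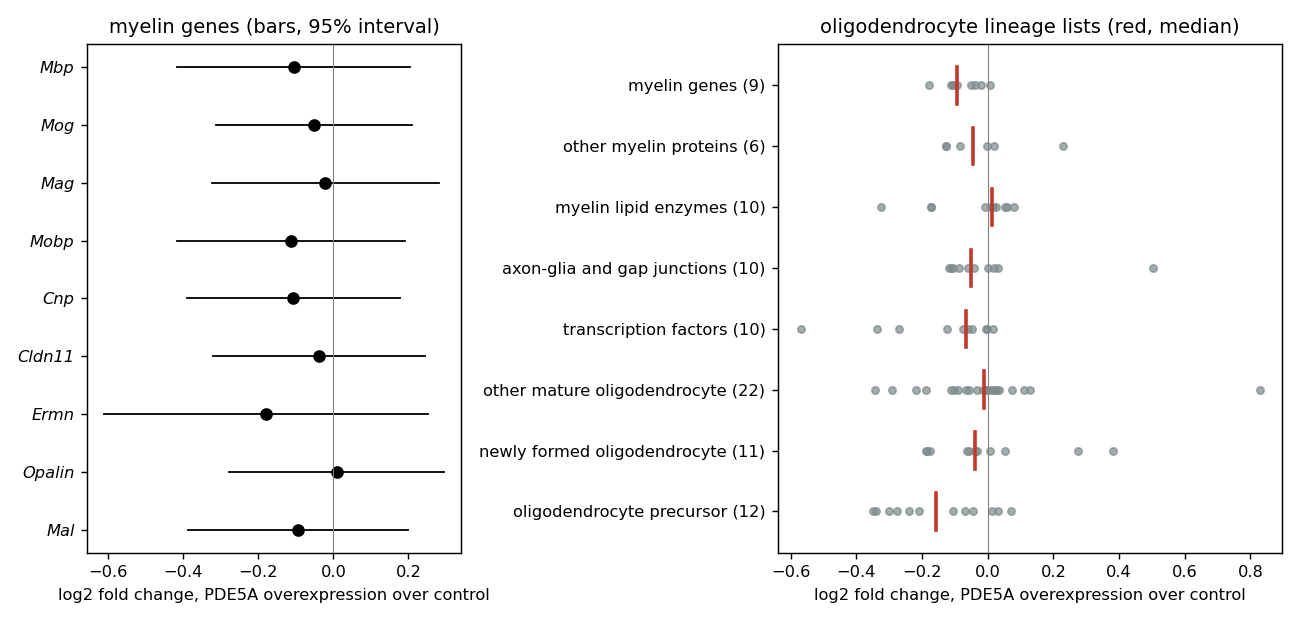
Log2 fold changes of PDE5A overexpression over control. On the left are the 9 myelin genes with 95% intervals from the edgeR fit, all of which include 0. On the right each grey point is a gene of an oligodendrocyte lineage list and the red line is the list's median, between -0.16 and 0.012.

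The larger differences were those between control libraries. For the 9 genes the highest overexpression library was 1.04 to 1.22 times the lowest, while the highest control library was 1.37 to 1.63 times the lowest. The SD was 2.32% to 9.98% of the mean in overexpression and 16.0% to 26.0% in control. Counting error was smaller, at most 2.10% for the lowest count of any member, 2273 for Opalin in overexpression replicate 2. For Opalin it was close to the SD in overexpression, 2.32% of the mean. The range was wider in control than in overexpression for 9 of 9 members, against 43% of all genes and 38.5% of those of at least 50 CPM, and all overexpression libraries lay within the control range for 9 of 9, against 15.8% of all genes and 14.1% of those of at least 50 CPM. The members varied together, so these counts are not independent, and the difference in spread was not tested. Control replicate 1 was the highest library for 8 of the 9 and control replicate 3 the lowest for 9 of 9.

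The share of all counts taken by the 9 genes was 0.998%, 0.915% and 1.002% in overexpression replicates 1 to 3, against 1.18%, 1.05% and 0.836% in control replicates 1 to 3. Each member's log2 CPM was set against its own mean over the 6 libraries. The average over the members was then 0.017, -0.084 and -0.027 in overexpression replicates 1 to 3, against 0.29, 0.030 and -0.22 in control replicates 1 to 3. This shared profile held 85.9% of the members' variance over libraries. Mbp made up 57.1% to 58.5% of the 9 genes' counts in overexpression and 57.8% to 58.3% in control.

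A few members departed from the shared profile in single libraries. Ermn lay 0.19 above it in control replicate 1 and 0.18 below it in overexpression replicate 3, on the log2 scale. Mobp and Mbp lay 0.19 and 0.11 above it in control replicate 2, where Opalin lay 0.14 below it. Mag lay 0.11 above it in overexpression replicate 3. All other departures were under 0.11 in size.

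**Figure D3:**
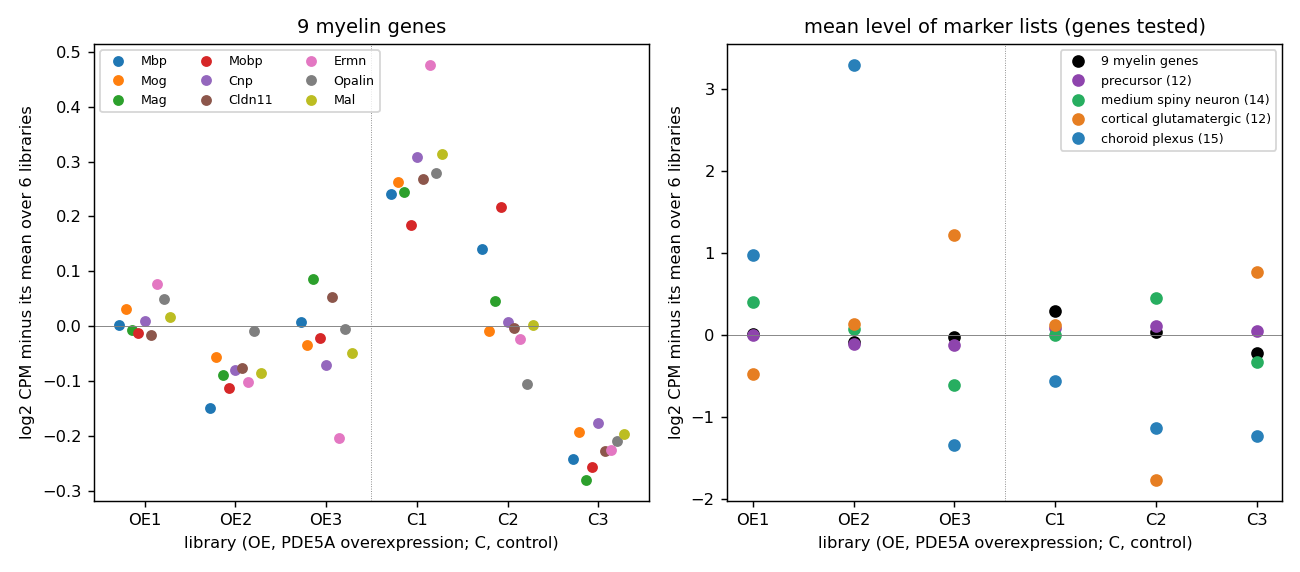
Log2 CPM minus its mean over the 6 libraries, with PDE5A overexpression libraries left of the dotted line and control libraries right of it. On the left are the 9 myelin genes, 8 of which are highest in C1 and 9 lowest in C3. On the right are the mean levels of the myelin genes and of 4 marker lists, with the number of genes tested in brackets; the myelin points stay between -0.22 and 0.29 while the choroid plexus points reach above 3 in OE2.

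Markers of other cells also differed between libraries, and their part in the myelin values was not tested. Choroid plexus markers, 15 of 15 tested, summed to 545, 2520 and 36.6 CPM in overexpression replicates 1 to 3, against 77.6, 55.8 and 56.5 CPM in control. Of the 15, Cldn2 alone had a count of 0, in control replicate 2. The thyroid hormone carrier Ttr, a choroid plexus product, stood at 481, 2243 and 22.5 CPM in overexpression, against 48.5, 32.6 and 35.7 CPM in control. Markers of glutamatergic neurons of the cortex, 12 of 12 tested and none at 0, summed to 424, 762 and 1428 CPM in overexpression, against 655, 218 and 1110 CPM in control. Their transporter Slc17a7 had 195, 434 and 817 CPM in overexpression, against 341, 64.3 and 670 CPM in control. Genes of the striatum's projection neurons, the medium spiny neurons, 14 of 14 tested and none at 0, summed to 10276, 7994 and 5012 CPM in overexpression, against 7797, 10535 and 6075 CPM in control. Control replicate 3 and overexpression replicate 3 were thus alike in being high in cortical and low in medium spiny neuron markers. Astrocyte markers, 10 of 10 tested and none at 0, summed to 4521 to 5170 CPM in overexpression and 5370 to 5777 CPM in control, and 7 of the 10 were separate and lower in overexpression, against 4.11% of all genes. The summed myelin genes stood at 9877 CPM in overexpression replicate 3 and at 8406 CPM in control replicate 3. Without both overexpression libraries high in choroid plexus markers, replicates 1 and 2, the median of the members was -0.070, a value that rests on overexpression replicate 3 alone against the 3 controls and is given without a test.

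Set per length of exon, as levels must be to compare genes, the members covered a wide range. Mbp was the highest, at 658 ± 39.6 CPM per kilobase in overexpression and 708 ± 120 in control (SD, n = 3 each), and Opalin the lowest, at 23.6 ± 0.548 in overexpression and 23.4 ± 4.33 in control. The order was Mbp, Mobp, Cnp, Mal, Cldn11, Mag, Mog, Ermn and Opalin in both groups. It stayed so when the longest transcript replaced all exons, although the value of Mbp in control was then 1250 and that of Mobp 696. Of neighbours in that order, only Cnp and Mal overlapped in the overexpression libraries. In the control libraries Cnp and Mal, Mal and Cldn11, Mag and Mog, and Mog and Ermn overlapped.

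**Figure D4:**
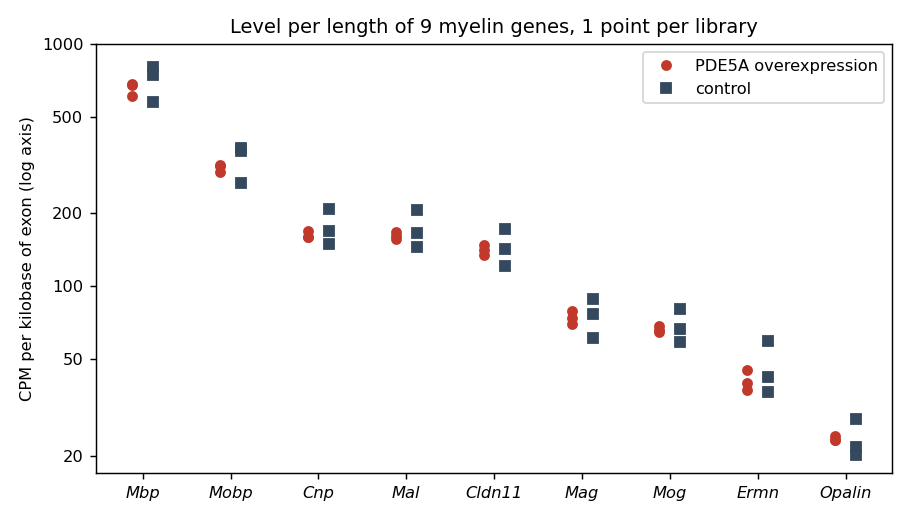
CPM per kilobase of exon on a log axis for the 9 myelin genes, ordered by their control mean, with 1 point per library; circles are PDE5A overexpression and squares control. Mbp lies at 612 to 682 in overexpression and 574 to 802 in control, and Opalin at 23.2 to 24.2 in overexpression and 20.2 to 28.3 in control.

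In the mm10 annotation the genes lie on chromosomes 18 (Mbp), 17 (Mog), 7 (Mag), 9 (Mobp), 11 (Cnp), 3 (Cldn11), 2 (Ermn and Mal) and 19 (Opalin). Some of the members share exon bases with other annotated genes, so their counts carry some uncertainty. For genes on opposite strands it depends on the strand setting of the counting, which is not given. Cnp shares 154 bases with Dnajc7 and Ermn 237 bases with Galnt5, both on the opposite strand. Mobp shares 79 bases with the transcript Gm38642 on the same strand, where no strand setting would separate them. Galnt5 had 10 to 40 counts per library where Ermn had 4827 to 9088, and Gm38642 had 25 to 52 where Mobp had 67258 to 104213. Dnajc7 was counted at 5383 to 6863 where Cnp had 19267 to 31791.

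Other genes of myelin and oligodendrocytes were read from 5 further lists of 58 genes, not all of them particular to mature oligodendrocytes. None of the 58 passed the test. Of the 58, 22 had positive and 36 negative fold changes, with a median of -0.023. At an unadjusted p under 0.05 there was 1, Tcf7l2, against 3.89% of all genes. Control replicate 1 was the highest library for 43 of the 58, against 14.9% of all genes, and control replicate 3 the lowest for 34, against 13.9%.

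The medians of these lists were small, and those of all 5 changed sign when 1 library was left out. Among 6 other myelin membrane proteins the median was -0.044 and 2 were positive. Cd9, a tetraspanin also made by other cells, had 57.6 to 66.2 CPM in overexpression and 45.8 to 65.4 CPM in control. Of 10 enzymes of myelin lipid metabolism 6 were positive, with a median of 0.012. Ugt8a, which makes the myelin lipid galactosylceramide, had 104, 83.2 and 94.8 CPM in overexpression, against 148, 113 and 92.5 CPM in control, a log2 fold change of -0.33 (SE 0.18, unadjusted p = 0.106, not past the test). Fa2h, which hydroxylates the fatty acids of these lipids, had a log2 fold change of -0.17 (SE 0.11).

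Genes of the paranode, of axon-glia contact and of gap junctions had a median of -0.051, with 4 of 10 positive. The connexin gene Gjc3 had 132, 119 and 127 CPM in overexpression, against 159, 135 and 116 CPM in control, a log2 fold change of -0.11 (SE 0.12). Ninj2, an adhesion protein, had 3.24 to 4.36 CPM in overexpression and 2.05 to 3.72 CPM in control. Of 10 transcription factors 1 was positive, with a median of -0.067. Tcf7l2, an effector of Wnt signalling in oligodendrocytes about to myelinate, had 6.23, 6.77 and 5.82 CPM in overexpression, against 11.8, 8.24 and 7.82 CPM in control. Its groups did not overlap and its log2 fold change was -0.57 (SE 0.18), but the edgeR quasi-likelihood p was 0.0141 before and 0.99996 after Benjamini-Hochberg adjustment. Tcf7l2 is also a marker of thalamic neurons, and Gbx2, another marker of those neurons, stood at 0.177 to 0.241 CPM in overexpression and 0.549 to 0.805 CPM in control. Gbx2 thus lay near the floor, and its log2 fold change of -1.57 was the most negative of the 10 thalamic genes listed. Prkcd, a further gene of that list, had 13.9, 12.6 and 17.3 CPM in overexpression, against 31.1, 23.0 and 21.8 CPM in control. Its log2 fold change was -0.79 (SE 0.17), not past the test. Of the 10 thalamic genes, Tcf7l2 among them, 9 were negative and 1 was positive, at 0.64. In 3 of the 10 the groups were separate and lower in overexpression, against 4.11% of all genes. The part of thalamic RNA in the Tcf7l2 value was not tested. St18 had 16.8 to 21.2 CPM in overexpression and 18.7 to 25.4 CPM in control.

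Of 22 other genes of mature oligodendrocytes 9 were positive, with a median of -0.011. Enpp2, which encodes autotaxin and is also a choroid plexus transcript, stood at 381, 972 and 282 CPM in overexpression, against 379, 276 and 267 CPM in control. It was highest in overexpression replicate 2, which was also highest in choroid plexus markers, and the part of choroid plexus RNA in its value was not tested. Its log2 fold change was 0.83 (SE 0.50) and ran from 0.11 without overexpression replicate 2 to 1.13 without overexpression replicate 3. Serpinb1a, a protease inhibitor, had 14.7 to 21.5 CPM in overexpression and 18.5 to 25.9 CPM in control.

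Earlier stages of the lineage were set beside the members. Of 11 genes of newly formed oligodendrocytes 4 were positive, with a median of -0.040, and 2 of the 11 had separate groups, against 8.93% of all genes. Gpr17, a receptor of cells leaving the precursor stage, had 41.1, 40.0 and 41.5 CPM in overexpression, against 47.0, 45.4 and 46.9 CPM in control, and the groups did not overlap. Its log2 fold change was -0.18 (SE 0.06), with an edgeR quasi-likelihood p of 0.0175 before and 0.99996 after Benjamini-Hochberg adjustment. Bmp4, a secreted growth factor and the other gene with separate groups, had 1.87, 2.20 and 2.27 CPM in overexpression, against 1.86, 1.58 and 1.41 CPM in control, a log2 fold change of 0.38 (SE 0.21) that did not pass the test. Of 12 precursor genes 3 were positive, with a median of -0.16 and 0 past the test. The 3 positive genes were Cspg4 at 0.070, C1ql1 at 0.032 and Matn4 at 0.013. Another 3 of the 12, Pdgfra, Ptprz1 and Sox6, were separate and lower in overexpression, against 4.11% of all genes. Pdgfra, the growth factor receptor that defines precursors, had 52.6, 49.7 and 46.2 CPM in overexpression, against 58.1, 63.3 and 66.6 CPM in control. Its log2 fold change was -0.34 (SE 0.08, Benjamini-Hochberg adjusted p = 0.849, edgeR quasi-likelihood). Whether precursor genes and the 9 myelin genes differed in their response was not tested. The summed precursor genes stood at 669, 622 and 587 CPM in overexpression, against 718, 743 and 722 CPM in control. Unlike the summed myelin genes, they were lower in every overexpression library than in any control library, and their range was wider in overexpression than in control. Ptprz1, the highest of the 12 in every library, weighed most in the sum, at 186 to 228 CPM in overexpression and 257 to 274 CPM in control. The mean log2 CPM of the 12, in which each gene weighs alike, was 4.79, 4.68 and 4.66 in overexpression, against 4.87, 4.89 and 4.84 in control. The separation was not particular to precursor genes, since the summed astrocyte markers above were also lower in every overexpression library.

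The genes most like the 9 members over the 6 libraries were found by the root mean square distance between centred log2 CPM profiles, over 10358 other genes of at least 10 CPM. Among the 50 nearest were 13 genes of the oligodendrocyte lists and 0 of the other lists, and the rest were on no list. The share of listed genes among the 10358 was not counted, so neither number has a background beside it. Many genes of the other lists lay below 10 CPM and could not appear. The 13 included Trf, the transferrin made by oligodendrocytes, the lineage factors Sox10, Olig2 and Myrf, and the gap junction gene Gjc3. The 5 nearest genes on none of the lists were Tnfaip6, Trim59, Itgb4, Gatm and Nup160, at distances of 0.028 to 0.044, where the median over all genes compared was 0.19. Tnfaip6 had 19.7, 18.7 and 18.9 CPM in overexpression, against 24.4, 19.4 and 17.1 CPM in control.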

How the data were processed

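Per the labels' protocols, Trizol was used for RNA isolation and a TruSeq kit for stranded libraries. The deposited files held raw whole-number counts per Ensembl gene, 1 file per sample, with no normalization by the authors. The build was mm10 and the tools named were STAR 2.5.3a, DESeq 1.16.1, Cuffnorm and FastQC 0.11.5, without their roles, per the submitters' processing notes. How reads were counted, with which strand setting and annotation, is not stated there.

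Symbols, exon lengths and overlaps came from GENCODE M21 for the same assembly, which matched 55154 of 55335 identifiers. The rest held at most 0.0129% of any library. Promoters came from RefSeq's GRCm38.p6 table. Groups were compared with edgeR 4.0.16 in R 4.3.3, by its quasi-likelihood F-test (robust, TMM scaling). The filterByExpr function kept 19809 genes, over which p-values were adjusted by Benjamini-Hochberg. Standard errors are the absolute log2 fold change over the square root of F, and 95% intervals use the fit's t distribution. Log2 CPM had a prior count of 2. Replicates differed by more than sampling noise (chi-square per degree of freedom 19.1 to 49.6). That cannot show that they came from separate animals, because separate preparations of 1 animal could also differ so. Each library was counted as a sample in the fit.

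The members, lists and tests were chosen with earlier results of these data known. The 9 members and 15 other lists are described by counts and medians with no test of the list. Named genes are Pde5a, the members, up to 3 genes of each other list with the smallest p (not all are printed, and some listed genes are not reported here), Ttr, Slc17a7, Ppp1r1b and Gbx2, and the 5 genes with the nearest profile. Cldn2, Cdh19, Cspg4, C1ql1, Matn4 and the lineage genes named among the nearest profiles were chosen after their values were seen. Of the listed symbols, Tmem2 had no match. Alternatives were other scalings and filters, DESeq2 1.42.0, limma-voom (limma 3.58.1), covariates, removal of mitochondrially encoded genes, and libraries left out.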

Additional observations from a re-analysis of the deposited data

How the results depend on the processing

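In the 17 alternatives that kept at least 2 libraries a group, 0 of the 9 myelin genes passed, with log2 fold changes from -0.32 to 0.17. When 1 library was left out the ranges were -0.23 to -0.00068 for Mbp, -0.15 to 0.083 for Mog, -0.15 to 0.11 for Mag, -0.25 to -0.028 for Mobp, -0.21 to 0.041 for Cnp, -0.15 to 0.10 for Cldn11, -0.32 to 0.055 for Ermn, -0.085 to 0.17 for Opalin, -0.20 to 0.061 for Mal and -0.21 to 0.017 for Gjc3. The sign turned for Mag with library totals only (0.0064). With a covariate for choroid plexus level it turned for Mag (0.018), Opalin (-0.023) and Enpp2 (-0.12). Without both overexpression replicates 1 and 2, which leaves 1 overexpression library and assumes that it varies like the controls, it turned for Mag (0.063), Cldn11 (0.025), Opalin (-0.011), Pmp22 (0.011) and Enpp2 (-0.12). The causes were not tested.

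The count of genes past the threshold, 1 in the reported fit, was 83 with the DESeq2 Wald test (76 higher, 7 lower), 6 with limma-voom (6 higher), 3 with no filter (3 higher), 6 with the cortical level as a covariate (5 higher, 1 lower) and, with 1 overexpression library and so not comparable with the others, 5 without both overexpression replicates 1 and 2 (3 higher, 2 lower). Leaving out single libraries gave 1 to 2 calls, 1 to 2 higher and 0 lower. With the replicate block it was 3, all 3 higher, and the block brought 0 members past the threshold. Deviations of same-numbered libraries had correlations of -0.020, 0.027 and 0.29. The best correlated control was replicate 2 for overexpression replicates 1 and 2, and replicate 3 for overexpression replicate 3. With 3 libraries a group these values cannot settle whether the samples were paired. The labels do not say so, and the numbers were not taken to pair the samples in the reported fit.

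The 8 lists of other cells had medians of -0.34 for Schwann cells, 3.21 for choroid plexus, 0.42 for cortical neurons, -0.36 for thalamic neurons, -0.044 for medium spiny neurons, -0.20 for astrocytes, 0.049 for microglia and 1.84 for T cells. The T cell median rests on 7 of 10 listed genes, 6 of them positive and 2 at 0 in some library. Of these, Cxcr6, Cd3g and Cd3e lay near the floor, with means of 0.97, 0.59 and 0.72 CPM in overexpression and 0.17, 0.12 and 0.090 CPM in control. The Schwann cell median was -0.15 with no filter, -0.14 with the stricter filter, -0.16 with the choroid plexus covariate, -0.10 without both overexpression replicates 1 and 2 and -0.45 to -0.16 with 1 library left out. The T cell median was 2.33 with no filter, 2.25 with limma-voom, 2.23 with the replicate block, 2.13 without both overexpression replicates and 1.65 to 2.63 with 1 library left out. The choroid plexus median was -0.010 with its own level as a covariate, -0.51 without both overexpression replicates and 0.88 to 3.76 with 1 library left out. Without both of them the medians were -0.13 for myelin lipid enzymes, -0.70 for medium spiny neurons, -0.29 for astrocytes and -0.13 for microglia. With 1 library left out the medians ran from -0.11 to 0.066 for other myelin proteins, -0.068 to 0.083 for lipid enzymes, -0.13 to 0.061 for axon-glia genes, -0.18 to 0.090 for transcription factors, -0.087 to 0.097 for other mature genes, -0.069 to 0.0048 for newly formed cells and -0.30 to -0.10 for precursors. For other cells they ran from -0.25 to 1.002 for cortical neurons, -0.45 to -0.18 for thalamic neurons, -0.30 to 0.18 for medium spiny neurons, -0.23 to -0.15 for astrocytes and -0.0067 to 0.16 for microglia.

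With mitochondrially encoded genes removed from the total, the members' share in overexpression replicates 1 to 3 was 1.11%, 1.02% and 1.10%, against 1.30%, 1.19% and 0.935% in control replicates 1 to 3. Per kilobase of the longest transcript, control levels were 1250 for Mbp, 127 for Mag, 696 for Mobp and 220 for Cnp. With 3 samples a group, the intervals of the members still allowed differences of -0.61 to 0.29 on the log2 scale.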
